A study of Homo sapiens with 6 samples.

Results

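YAP1 and its relative TAZ, which is encoded by *WWTR1*, are transcriptional coactivators that do not bind DNA themselves. They enter the nucleus and work through the TEAD transcription factors. The Hippo kinases oppose them: STK3 and STK4 with their adaptor SAV1 activate LATS1 and LATS2 with their adaptors MOB1A and MOB1B, and LATS kinases phosphorylate YAP1 and TAZ, which keeps them in the cytoplasm and marks them for breakdown. This account covers 10 genes of that axis in OE-19 cells, chosen by name with earlier results of these data known. They are the coactivators *YAP1* and *WWTR1*, the factors *TEAD1* and *TEAD4*, the kinase *LATS2*, the regulators *AMOTL2* and *AJUBA*, and the target genes *ANKRD1*, *CCN1* and *CCN2*. All 10 were found among the 60480 gene identifiers of the table, and all 10 passed the filter on low counts.

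OE-19 is a human cell line of adenocarcinoma of the esophagogastric junction (AEG). Poly(A) RNA-seq was done on 3 libraries of cells with a control knockdown (titled shControl, while the table's columns read Puro, a word the labels do not explain) and 3 libraries of cells in which IGF2BP3, an RNA-binding protein that reads m6A marks, was knocked down by shRNA (IGF2BP3 KD). The labels name no further treatment or time point, do not say whether the 3 IGF2BP3 KD libraries carry the same hairpin, and do not say whether replicates are separate cultures, so the p-values measure the spread between these libraries. Levels are in TMM-scaled CPM, a gene's count relative to its library's total after edgeR's scaling between libraries, and a negative log2 fold change means less mRNA in IGF2BP3 KD cells. A gene is called lower or higher where the quasi-likelihood test of edgeR, adjusted after Benjamini-Hochberg over 19778 tested genes, gave a p under 0.05.

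*IGF2BP3* itself had 6532 to 7416 counts in the control and 777 to 794 counts in the IGF2BP3 KD libraries. Libraries held 53424071 to 69989087 counts. The 8 epithelial markers examined (*EPCAM*, *KRT8*, *KRT18*, *KRT19*, *CDH1*, *CDH17*, *VIL1* and *ERBB2*) summed to 19100 to 20070 CPM in control and 20950 to 21450 CPM in IGF2BP3 KD libraries, and 3 of them were called higher and 2 lower. Most of that sum and of its rise was *ERBB2*, with a mean of 13070 CPM in control and 14340 CPM in IGF2BP3 KD libraries. The higher genes were *EPCAM*, *CDH17* and *ERBB2*, and the lower ones *KRT8* and *KRT18*. Of 8 fibroblast and mesenchymal markers, *COL1A2* and *LUM* were at 0 in all libraries and 7 stayed under 1 CPM, and the sum of the list, nearly all *COL1A1*, was 21.2 to 24.6 CPM in control and 29.9 to 34.4 CPM in IGF2BP3 KD libraries, and the part of this shift in the results was not tested. All 5 endothelial markers and 4 of 5 leukocyte markers stayed under 1 CPM in every library. In bulk RNA, fewer cells that express a gene and less RNA of that gene per cell cannot be told apart.

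Of the 10 axis genes, 4 were lower in IGF2BP3 KD cells (*LATS2*, *CCN2*, *AJUBA* and *AMOTL2*), 0 were higher and 6 were not called (*YAP1*, *WWTR1*, *TEAD1*, *TEAD4*, *CCN1* and *ANKRD1*). Among all tested genes 10.6% were called lower and 9.87% higher, 20.4% in all. The axis genes and the listed genes below are all protein-coding. Among the 13939 tested genes with a coding 3′ UTR, 14.3% were lower and 13.0% higher. The median log2 fold change was -0.22 over the 10 genes and 0.0098 over all tested genes. Because the 10 genes were chosen with earlier results of these data known, these counts and shares are a description of them and no test of the axis. The 4 lower genes stayed lower in each of the 14 alternative settings, which include DESeq2, the replicate block and each library left out in turn. In 5 of the 10 genes the 3 IGF2BP3 KD values all lay below the 3 control values, against 17.8% of all tested genes, and the fifth was *TEAD4*. In none did they all lie above, against 18.0% of all tested genes.

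**Figure D1:**
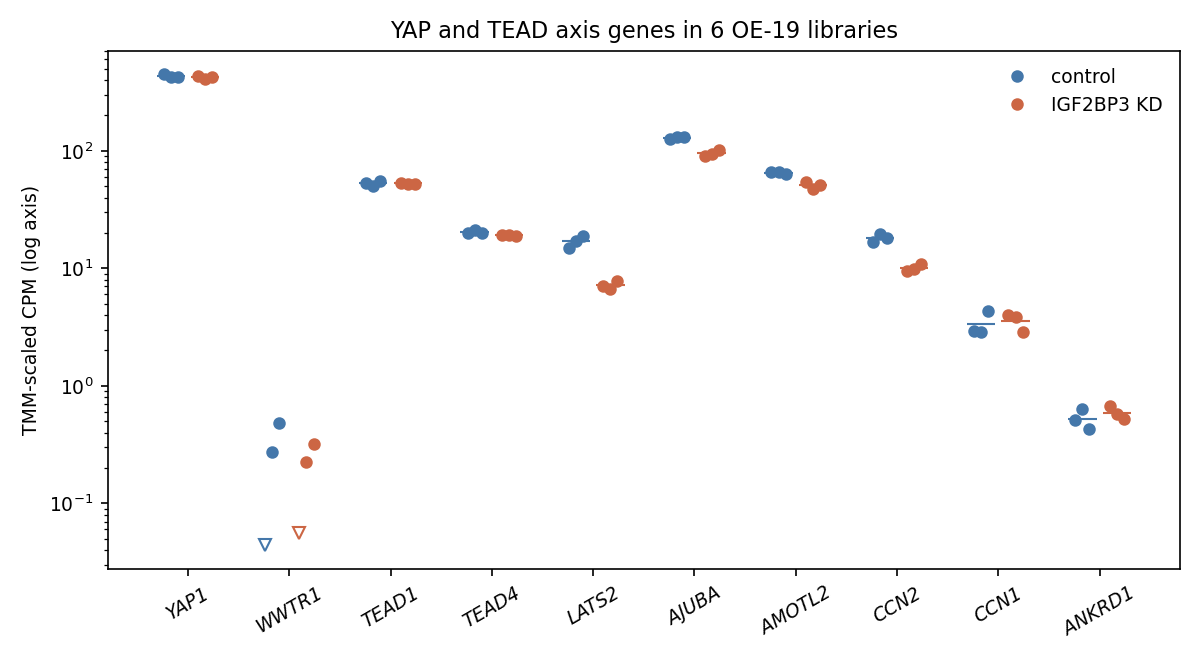
TMM-scaled CPM of the 10 axis genes (log axis) in each library, with control in blue and IGF2BP3 KD in orange; horizontal lines are means of 3 libraries, and open triangles mark libraries with 0 counts, drawn at the level of 3 counts. *YAP1* stood at 412 to 447 CPM in all 6 libraries, while *LATS2*, *AJUBA*, *AMOTL2* and *CCN2* separated by group.

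*YAP1* (ENSG00000137693, chromosome 11 of hg38, 102110447 to 102233424, plus strand) had 447, 421 and 424 CPM in control replicates and 429, 412 and 420 CPM in IGF2BP3 KD replicates. The groups overlapped. The log2 fold change was -0.03, with a 95% interval of -0.10 to 0.03, so at this depth and spread a fall in *YAP1* mRNA beyond 6.77% or a rise beyond 2.24% lay outside the interval. Its edgeR adjusted p was 0.50, and the log2 fold change stayed between -0.05 and -0.01 in the 14 alternative settings. *YAP1* shares 639 exonic bases with genes on the opposite strand.

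*WWTR1* (ENSG00000018408, chromosome 3, 149517235 to 149736714, minus strand), which encodes TAZ, was close to the detection limit. Control replicates 1, 2 and 3 had 0, 19 and 28 counts, and IGF2BP3 KD replicates 0, 14 and 20. A count of 0 allows up to 3 counts, which is 0.0438 CPM in control replicate 1 and 0.0556 CPM in IGF2BP3 KD replicate 1. The 0 therefore fell on the library numbered 1 in both groups. Such a pattern, 0 counts in 1 control and 1 IGF2BP3 KD library and at least 10 counts in the other 4, occurred in 6 genes for these 2 libraries and in 2 to 7 genes for the 9 possible pairs of libraries. Its log2 fold change of -0.43 had a 95% interval of -3.05 to 2.19, and it ranged from -1.10 to 0.41 when single libraries were left out, with the sign turned in the fits that lacked control replicate 3 (0.41) and IGF2BP3 KD replicate 1 (0.12). No change of *WWTR1* could be measured at these low counts and this spread between libraries. It shares 756 exonic bases with *WWTR1-AS1* on the opposite strand.

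Per kilobase of merged exons, *YAP1* was at 68.2 CPM in control and 66.6 CPM in IGF2BP3 KD cells. In the 4 libraries with *WWTR1* counts above 3, *YAP1* was 1174-fold to 2418-fold above *WWTR1* on this per-length scale. In control replicate 1 it was at least 13520-fold above and in IGF2BP3 KD replicate 1 at least 10220-fold above, counting *WWTR1* at the limit of 3 counts per library. *YAP1* made up at least 99.91% of the summed per-length level of both coactivators in each of the 6 libraries. The ratio of *YAP1* to *WWTR1* change per library could not be formed because of the 0 counts.

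The genes whose 6-library pattern was most like that of *YAP1* were *DYNLL2*, *CENPF* and *TTC17*. They had the smallest root mean square difference from *YAP1* in log2 CPM centred on each gene's mean, at 0.0085, 0.013 and 0.013, among the 9849 genes at or above a mean of 10 CPM, where the median difference was 0.103. Their log2 fold changes were -0.04, -0.05 and -0.04.

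The TEAD factors bind DNA and carry YAP1 and TAZ to their target genes. *TEAD1* (ENSG00000187079, chromosome 11, 12674421 to 12944737, plus strand) had 53.1, 50.5 and 54.8 CPM in control and 53.4, 52.6 and 52.1 CPM in IGF2BP3 KD replicates. The groups overlapped, and the log2 fold change was -0.0027, with a 95% interval of -0.11 to 0.11. *TEAD4* (ENSG00000197905, chromosome 12, 2959330 to 3040676, plus strand) had 20.1, 21.1 and 19.8 CPM in control and 19.2, 19.1 and 18.8 CPM in IGF2BP3 KD replicates. Each IGF2BP3 KD value lay below each control value, but the log2 fold change of -0.10 (95% interval -0.24 to 0.05) was not called (edgeR adjusted p 0.37). The log2 ratio of *TEAD1* to *TEAD4* counts within a library was 1.38 ± 0.11 in control and 1.47 ± 0.01 in IGF2BP3 KD cells (SD, n = 3). The groups overlapped, and a two-sided exact permutation test of the difference of 0.0933 gave p = 0.3, where 0.1 is the smallest p that 3 against 3 allows. The difference was 0.0326 without control replicate 2 and 0.141 without control replicate 3.

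Of the other family members, *TEAD2* rose and *TEAD3* was not called. *TEAD2* had 19.5, 22.3 and 20.2 CPM in control and 29.9, 29.4 and 29.0 CPM in IGF2BP3 KD replicates. The groups did not overlap, and the log2 fold change was 0.51 (SE, its standard error, 0.07, edgeR adjusted p 2.8e-04). *TEAD2* shares 319 exonic bases with *CD37* on the opposite strand. *TEAD3* stood at 35.4 ± 0.967 and 35.7 ± 0.196 CPM (SD, n = 3), a log2 fold change of 0.01.

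Per kilobase of exons the order of levels in control cells was *TEAD3* (11.6 CPM), *TEAD4* (8.94 CPM), *TEAD2* (6.93 CPM) and *TEAD1* (4.94 CPM), with no overlap between neighbours. In IGF2BP3 KD cells *TEAD2* (9.87 CPM) stood above *TEAD4* (8.37 CPM), again without overlap. The summed level of the 4 TEAD genes per kilobase was 32.4 ± 0.318 CPM in control and 34.9 ± 0.322 CPM in IGF2BP3 KD cells (SD, n = 3). The share of *TEAD2* in this sum was 20.3%, 22.9% and 20.9% in control and 28.6%, 28.2% and 28.2% in IGF2BP3 KD replicates. All 3 IGF2BP3 KD shares were higher than all 3 control shares. The shares rest on merged exon lengths of the reference annotation, not on the isoforms these cells use.

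**Figure D2:**
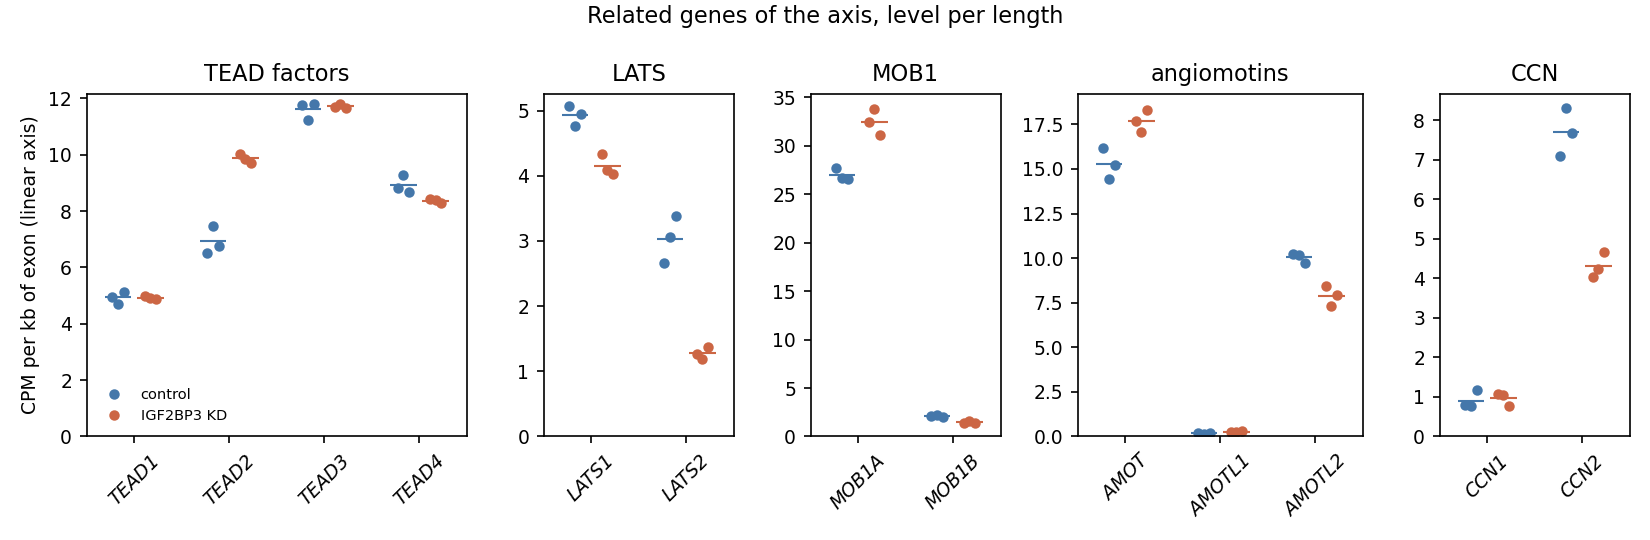
Level per kilobase of merged exons (CPM per kb, linear axes from 0, each panel with its own scale) of related genes of the axis in each library, control in blue and IGF2BP3 KD in orange, with lines at the means of 3 libraries. *TEAD2* moved from 6.93 to 9.87 CPM per kb above *TEAD4*, *LATS2* from 3.03 to 1.28, and *CCN2* from 7.69 to 4.30, while *TEAD1*, *TEAD3* and *CCN1* overlapped between groups.

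Among the VGLL proteins, which bind TEADs in place of YAP1, *VGLL4*, known as an inhibitor of TEAD activity, was lower. It had 75.2, 72.7 and 70.8 CPM in control and 39.7, 47.1 and 48.7 CPM in IGF2BP3 KD replicates. The groups were far apart, with a log2 fold change of -0.69 (SE 0.07, edgeR adjusted p 5.0e-05). *VGLL4* shares 1716 exonic bases with genes on the opposite strand, *ATG7* among them. *VGLL1* was low, at 0.57 ± 0.151 and 0.92 ± 0.146 CPM (SD, n = 3), and was not called (log2 fold change 0.69, 95% interval -0.04 to 1.42). *VGLL2* had 0 counts in every library, and *VGLL3* did not pass the filter on low counts.

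*LATS2* (ENSG00000150457, chromosome 13, 20973036 to 21061586, minus strand), the kinase that phosphorylates YAP1 and TAZ and also a target gene of YAP1, changed most of the 10 axis genes. It had 14.9, 17.1 and 19.0 CPM in control and 7.13, 6.70 and 7.73 CPM in IGF2BP3 KD replicates. The highest IGF2BP3 KD library was well below the lowest control library. The log2 fold change was -1.24 (SE 0.11, 95% interval -1.48 to -1.01, edgeR adjusted p 1.5e-05) and the level fell by 57.8%. Of the 2088 genes called lower, 45, *LATS2* included, had a log2 fold change at or below that of *LATS2*. With single libraries left out the value stayed between -1.33 and -1.16. *LATS2* overlaps no exon of another gene.

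*LATS1*, the paralog, was also lower, but by less: 43.0, 40.4 and 42.1 CPM in control against 36.8, 34.7 and 34.3 CPM in IGF2BP3 KD replicates, a log2 fold change of -0.25 (SE 0.06). The log2 ratio of *LATS2* to *LATS1* counts, chosen after the values were seen, was -1.30 ± 0.198 in control and -2.30 ± 0.128 in IGF2BP3 KD cells (SD, n = 3), with no overlap. Per kilobase, the 2 LATS genes summed to 7.96 ± 0.329 CPM in control and 5.43 ± 0.16 CPM in IGF2BP3 KD cells, and the share of *LATS2* went from 38.0% to 23.6%.

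In the core kinase list (*STK3*, *STK4*, *SAV1*, *MOB1A*, *MOB1B*, *LATS1* and *LATS2*), 4 of 7 genes were lower and 1 was higher, or 3 and 1 of 6 without *LATS2*, against 10.6% and 9.87% of all tested genes. *MOB1B* was lower, at 18.6 ± 1.07 CPM in control and 12.9 ± 0.811 CPM in IGF2BP3 KD cells (log2 fold change -0.53, SE 0.08). *MOB1B* shares 199 exonic bases with *DCK* on its strand, so part of its count is uncertain. *MOB1A*, the more abundant adaptor, was higher, at 174 ± 4.19 and 209 ± 8.51 CPM (log2 fold change 0.27, SE 0.04). Per kilobase the 2 adaptors summed to 29.1 ± 0.708 CPM in control and 33.9 ± 1.39 CPM in IGF2BP3 KD cells. *STK4*, which encodes MST1, had a log2 fold change of -0.19 (SE 0.05), but the call was lost on leaving out control replicate 2 (-0.18), control replicate 3 (-0.17) or IGF2BP3 KD replicate 3 (-0.15). *STK3*, which encodes MST2, and *SAV1* were not called, at -0.10 and -0.02.

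*AJUBA* (ENSG00000129474, chromosome 14, 22971177 to 22982551, minus strand) is a LIM protein that binds and restrains LATS kinases. It had 125, 130 and 132 CPM in control and 90.9, 93.9 and 101 CPM in IGF2BP3 KD replicates. The groups were separate, and the log2 fold change was -0.44 (SE 0.04, edgeR adjusted p 4.6e-05), and the level fell by 26.2%. Its relatives *LIMD1* and *WTIP* were not called, at -0.13 and -0.04. It shares 50 exonic bases with another gene on its strand. On the per-length scale *AJUBA* made up 77.2% of the family in control and 73.1% in IGF2BP3 KD cells.

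*AMOTL2* (ENSG00000114019, chromosome 3, 134355347 to 134375479, minus strand) belongs to the angiomotins, junction proteins that bind YAP1 and hold it in the cytoplasm, and is itself a target gene of YAP1. It had 66.1, 66.0 and 63.0 CPM in control and 54.6, 47.5 and 51.5 CPM in IGF2BP3 KD replicates. No IGF2BP3 KD value reached a control value, and the log2 fold change was -0.35 (SE 0.06, edgeR adjusted p 1.3e-03), and the level fell by 21.4%. *AMOT* moved the other way, from 130 ± 7.38 to 151 ± 5.43 CPM (SD, n = 3, log2 fold change 0.21, SE 0.05). *AMOTL1* was low, at 1.76 ± 0.203 and 2.71 ± 0.167 CPM, and was called higher at 0.63 (edgeR adjusted p 0.041). That call was lost with DESeq2 and in 10 of the other 13 alternative settings, among them the replicate block and each library left out in turn, and over the latter its log2 fold change lay between 0.54 and 0.71. The 3 angiomotins together were at 25.5 ± 0.954 CPM per kilobase in control and 25.9 ± 1.07 in IGF2BP3 KD cells, and the share of *AMOTL2* went from 39.4% to 30.5%. *AMOTL2* shares 187 exonic bases with the pseudogene *RPL39P5*.

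**Figure D3:**
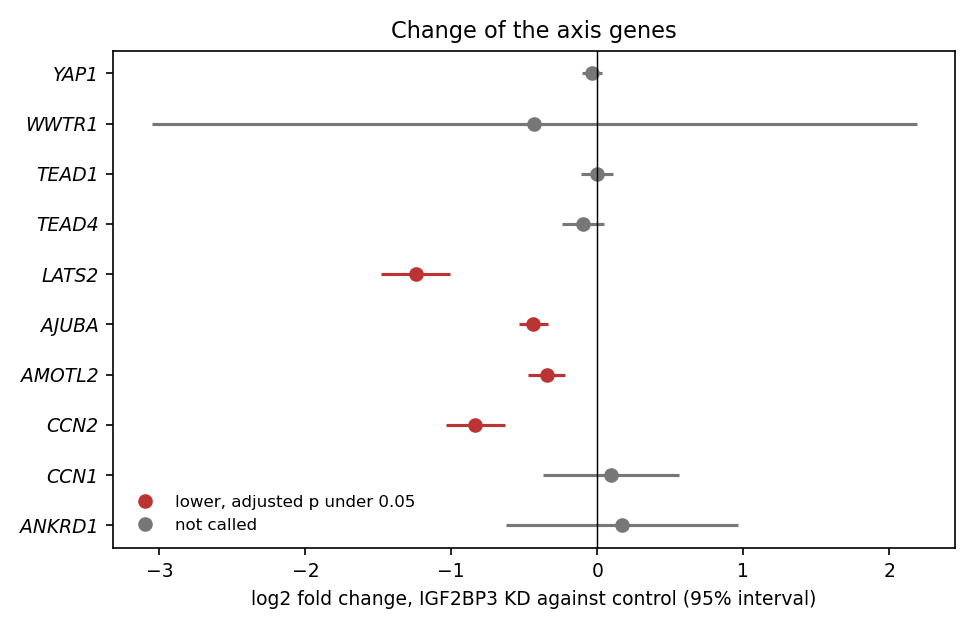
Log2 fold change of the 10 axis genes in IGF2BP3 KD against control cells; points are edgeR estimates, horizontal lines are 95% intervals from 3 against 3 libraries, red marks genes called lower and grey genes not called. *LATS2* (-1.24) and *CCN2* (-0.84) lay farthest below 0, *YAP1* and *TEAD1* had narrow intervals around 0, and *WWTR1* spanned -3.05 to 2.19.

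The target genes did not move together. *CCN2* (ENSG00000118523, chromosome 6, 131948176 to 131951372, minus strand), which encodes the matricellular protein CTGF and is a classical readout of YAP1, had 16.6, 19.4 and 17.9 CPM in control and 9.41, 9.87 and 10.9 CPM in IGF2BP3 KD replicates. The groups were separate, and the log2 fold change was -0.84 (SE 0.09, 95% interval -1.04 to -0.63, edgeR adjusted p 7.7e-05), and the level fell by 44%. It shares 278 exonic bases with *LINC01013* on the opposite strand.

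*CCN1* (ENSG00000142871, chromosome 1, 85580761 to 85584589, plus strand), which encodes the related protein CYR61, had 2.94, 2.84 and 4.30 CPM in control and 4.0, 3.87 and 2.89 CPM in IGF2BP3 KD replicates. The groups overlapped, with a log2 fold change of 0.09 and a 95% interval of -0.37 to 0.56. That interval does not include a fall as large as that of *CCN2*. The log2 ratio of *CCN2* to *CCN1* counts, also chosen after the values were seen, was 2.50, 2.77 and 2.06 in control and 1.23, 1.35 and 1.91 in IGF2BP3 KD replicates, so each control ratio was above each IGF2BP3 KD ratio. *ANKRD1* (ENSG00000148677, chromosome 10, 90912096 to 90921087, minus strand), an ankyrin repeat protein induced by YAP1 in many cells, gave 35, 44 and 25 counts in control against 36, 36 and 33 in IGF2BP3 KD replicates. At 0.523 ± 0.103 and 0.59 ± 0.0723 CPM (SD, n = 3), the groups overlapped, and its log2 fold change of 0.17 had a 95% interval of -0.63 to 0.96 and ranged from 0.042 to 0.32 with single libraries left out.

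A further 17 target genes of YAP1 and TEAD were listed by hand, and 14 of them were tested. Of these, 1 was lower, 1 was higher and 12 were not called, and their median log2 fold change was -0.04. That is 7.14% in each direction, beside 10.6% and 9.87% of all tested genes, and the higher count was 2 without control replicate 1 and 3 with protein-coding genes only or at an adjusted p under 0.10. The lower gene was *DOCK5*, a guanine nucleotide exchange factor for RAC, with 190 ± 1.67 CPM in control and 163 ± 4.27 CPM in IGF2BP3 KD cells (log2 fold change -0.22, SE 0.03). The higher one was *ARHGEF17*, at 14.1 ± 1.04 and 18.8 ± 1.75 CPM (log2 fold change 0.42, SE 0.09). The log2 fold changes of the 12 uncalled genes ranged from -0.75 (*AXL*) to 0.79 (*FJX1*). Those of *MYOF*, *ASAP1*, *CRIM1*, *GADD45A* and *NUAK2* lay from -0.09 to 0.04, while *NT5E* (0.27, edgeR adjusted p 0.060) and *PTPN14* (0.20, edgeR adjusted p 0.070) had all 3 IGF2BP3 KD values above the control values. These uncalled genes were named after their values were seen. With the axis genes included, the list had 4 lower and 1 higher of 19 tested genes.

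In the 6 Hippo pathway lists together, from the kinases to the TEAD cofactors and YAP1 breakdown, 48 genes outside the 10 axis genes were tested. Of these, 10 were lower and 6 higher (20.8% and 12.5%, against 10.6% and 9.87% of all tested genes), with a median log2 fold change of -0.05. Among tested genes with a coding 3′ UTR, 14.3% were lower and 13.0% higher, so the higher share of the pathway genes was not above that of such genes. Of 10 upstream kinases, which feed into LATS beside STK3 and STK4, *MAP4K4* (-0.38, SE 0.04) and *TNIK* (-0.16, SE 0.03) were lower. *MINK1* was higher (0.15, SE 0.04), but not without IGF2BP3 KD replicate 2 (0.13). *TAOK1*, *TAOK2* and *TAOK3* were not called. Of the 11 other scaffolds and LATS regulators, *WWC3* was lower (-0.34, SE 0.07), and *AMOT* and *AMOTL1* were the 2 higher ones. *NF2*, which encodes the tumor suppressor merlin, was not called (-0.15).

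In the STRIPAK complex, a phosphatase assembly that holds STK3 and STK4 inactive, 2 of 13 genes were lower and 1 was higher (15.4% and 7.69%), close to the 10.6% and 9.87% of all tested genes. *MOB4*, a subunit of that complex, had 28.3, 28.4 and 27.1 CPM in control and 47.5, 47.2 and 46.6 CPM in IGF2BP3 KD replicates. The groups were far apart, and the log2 fold change of 0.76 (SE 0.05, edgeR adjusted p 2.7e-06) was the highest among the called genes of these lists. It shares 698 exonic bases with the readthrough gene *HSPE1-MOB4*, so part of its count is uncertain. *STRN4* was lower (-0.20, SE 0.04). *STRIP2* was lower at -0.46 (SE 0.12), a call lost on leaving out control replicate 2 (-0.36), IGF2BP3 KD replicate 1 (-0.44) or IGF2BP3 KD replicate 3 (-0.40). Of 4 genes for the breakdown of phosphorylated YAP1, *FBXW11*, a ubiquitin ligase subunit, was lower (-0.40, SE 0.05), and its paralog *BTRC* was not called (0.05).

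**Figure D4:**
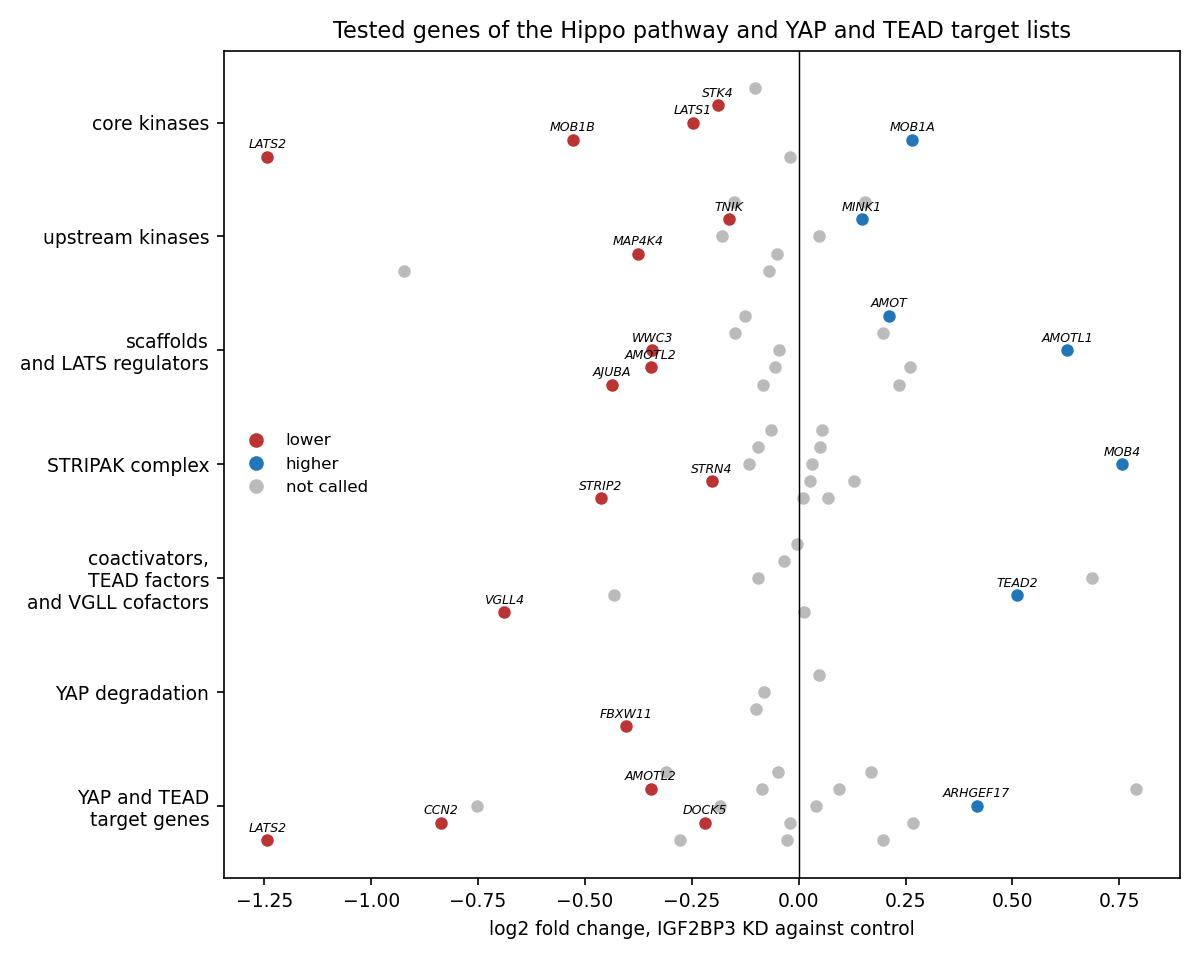
Log2 fold change of each tested gene in 7 lists of the axis, the 10 axis genes included; red points are called lower, blue higher and grey not called, names mark called genes, and the vertical position within a list has no meaning. Called genes lay from -1.24 (*LATS2*) to 0.76 (*MOB4*), with lower and higher genes side by side in 6 of the 7 lists.

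TEAD factors recognise the bases GGAATG, read as CATTCC on the other strand. Promoters of 7 of the 10 axis genes, 10 promoters in all, were taken from RefSeq (GRCh38.p14), each from 250 bases before to 50 after a transcription start; *TEAD1*, *TEAD4* and *CCN1* have no entry in the table used. Of the 10 promoters, 6 hold the motif on either strand, against 14% of all 35116 RefSeq promoters of this length. The motif is not particular to the axis genes: 5 of 13 promoters (38.5%) of the further YAP1 and TEAD target genes hold it, and most of those genes were not called. The promoter of *CCN2* holds it 3 times, and 0.128% of all promoters hold it at least 3 times. The windows below are shown because they set motif copies of axis genes that fell beside those of axis genes that were not called. Each window has 30 bases, 5′ to 3′ on the gene's strand, and capitals mark the motif.
CCN2, chr6:131951524-131951553, minus strand: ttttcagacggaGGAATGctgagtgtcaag
CCN2, chr6:131951459-131951488, minus strand: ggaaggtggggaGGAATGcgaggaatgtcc
CCN2, chr6:131951450-131951479, minus strand: ggaggaatgcgaGGAATGtccctgtttgtg
LATS2, chr13:21061560-21061589, minus strand: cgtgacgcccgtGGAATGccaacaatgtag
AMOTL2, chr3:134374499-134374528, minus strand: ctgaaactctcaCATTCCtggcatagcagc
AJUBA, chr14:22976884-22976913, minus strand: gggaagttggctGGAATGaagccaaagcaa
ANKRD1, chr10:90921290-90921319, minus strand: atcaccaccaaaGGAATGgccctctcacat
ANKRD1, chr10:90921198-90921227, minus strand: gacactgagtctGGAATGaaaattcacctg
YAP1, chr11:102110273-102110302, plus strand: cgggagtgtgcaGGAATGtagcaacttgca

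Relative to the transcription start, the first bases of the motif copies lie at -169, -104 and -95 in *CCN2*, at -69 in *AMOTL2*, at -59 in *AJUBA*, at -220 and -128 in *ANKRD1*, at -162 in *YAP1* and at 10 in *LATS2*. The *CCN2* windows at -104 and -95 overlap. *AJUBA* and *AMOTL2* have 2 promoters each in the table, of which 1 holds the motif. In both genes that is the promoter farther inside the gene, and the promoter nearer the gene's annotated 5′ end holds none. The 4 genes called lower hold at least 1 copy each, and so do *ANKRD1* and *YAP1*, which were not called. The 2 *WWTR1* promoters in the table hold none of these letters. A match of letters is a description and was not tested for binding.

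A pair of 7-base words in the 3′ UTR, GATTACT and ACACATC, were picked earlier on these same libraries, so the counts that follow are a description and not independent support. The 3′ UTRs of the canonical GENCODE v44 transcripts were searched on the transcript strand. GATTACT is in 6.84% and ACACATC in 8.98% of 19550 coding 3′ UTRs. Of the 13939 tested genes with such a 3′ UTR, 14.3% were lower and 13.0% higher. The shares were 37.3% and 5.43% of the 865 with GATTACT alone, 7.94% and 31.0% of the 1121 with ACACATC alone, and 13.0% and 11.9% of the 11746 with neither word. Of the 10 axis genes, *LATS2* and *WWTR1* hold GATTACT once each, and none holds ACACATC. *CCN2*, *AJUBA* and *AMOTL2* fell without either word. UGGAC, written TGGAC in DNA letters, is the sequence the study found at IGF2BP3 binding sites. TGGAC is in 57.4% of these 3′ UTRs. It occurs 7 times in that of *TEAD1*, 4 times in *AMOTL2* and 2 times in *CCN1*. *YAP1*, *WWTR1*, *AJUBA* and *CCN2* hold it 1 time each, and *LATS2*, *TEAD4* and *ANKRD1* do not hold it. The 3′ UTRs of the 10 genes run from 198 bases (*TEAD4*) to 7515 bases (*TEAD1*), and these counts were not scaled to length.

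Over the 71 tested axis, Hippo pathway and target genes, 7 hold GATTACT without ACACATC, of which 5 were lower and 0 higher (*LATS2*, *VGLL4*, *MOB1B*, *STRIP2* and *MAP4K4* lower, *WWTR1* and *NT5E* not called). ACACATC without GATTACT is in 9, of which 0 were lower and 3 higher (*MOB4*, *MOB1A* and *AMOTL1*, the last with a call lost in most alternative settings). The 6 not called were *TGFB2* (log2 fold change -0.31), *MAP4K2* (-0.15), *WWC1* (-0.08), *WTIP* (-0.04), *MAP4K3* (0.05) and *PTPN14* (0.20). *STRN* holds both and was not called, and of the 54 with neither word 10 were lower and 4 higher. The sites of the called genes with an adjusted p under 0.01 are shown, 30 bases each, with the word in capitals, GATTACT first.
LATS2, chr13:20974738-20974767, minus strand: attagtccgtcGATTACTtcacttgaaatt
VGLL4, chr3:11557331-11557360, minus strand: gctgaacagcaGATTACTgacagacaatct
MOB1B, chr4:70982498-70982527, plus strand: aacaatattagGATTACTacccagggcact
MAP4K4, chr2:101891256-101891285, plus strand: tgtgatccaggGATTACTggcctccagagt
MOB4, chr2:197550701-197550730, plus strand: tatcattttagACACATCaatcatgtatcc
MOB1A, chr2:74155480-74155509, minus strand: catgaaggtgtACACATCttataacacaga

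These 4 genes with GATTACT had log2 fold changes of -1.24, -0.69, -0.53 and -0.38, in the order printed, and *MOB4* and *MOB1A* 0.76 and 0.27. As the words were picked on these same libraries, the matches in related genes are also a description only. In the MOB1 pair, the lowered *MOB1B* holds GATTACT and the raised *MOB1A* holds ACACATC. In the LATS pair, *LATS2* holds GATTACT and *LATS1*, which changed less, holds neither word. *TEAD2*, *AMOT*, *WWC3* and *FBXW11* were called and hold neither word.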

How the data were processed

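Per the labels and the study's methods, the authors treated reads with fastp, aligned 150-base read pairs to hg38 with hisat2 and counted reads per gene with featureCounts. The deposited values are these counts, without normalization; tool versions, annotation release and strand setting are not given in the sources used here, so overlapping genes are uncertain. Of 60612 entries, 132 repeats of 44 identifiers were left out. The 3 control and 3 IGF2BP3 KD libraries were TMM-scaled and fitted with the quasi-likelihood functions of edgeR 4.0.16 (R 4.3.3), with no block, after filterByExpr at its thresholds of 10 counts and 15 in total. Benjamini-Hochberg adjustment covered 19778 genes. The standard error is the absolute log2 fold change over the square root of F. The script was tested on simulated data. Positions, exon lengths and 3′ UTRs come from GENCODE v44 (hg38), promoters from RefSeq. DESeq2 1.42.0 was an alternative. The members and gene lists were chosen with earlier results of these data known. Named were all 10 genes, their closest relatives, the called genes of each list (at most 5 per direction, by p) and the 3 genes most like *YAP1*. Other uncalled genes were named after their values were seen. Limits from 3 counts cover counting error only.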

Additional observations from a re-analysis of the deposited data

How the results depend on the processing

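The counts of axis genes lower (4) and higher (0) were the same in all 14 alternatives, and so was the direction of *IGF2BP3*. At an adjusted p under 0.01, 1314 genes were lower and 1098 higher over all genes. The further target genes called higher numbered 3 with protein-coding genes only, 3 at an adjusted p under 0.10 and 1 to 2 with single libraries left out (2 without control replicate 1). *TEAD1* changed sign with protein-coding genes only (0.00045), and ranged from -0.037 to 0.022 with single libraries left out. The same ranges were -1.10 to 0.41 for *WWTR1*, -0.015 to 0.31 for *CCN1* and -0.012 to 0.023 for *TEAD3*; none of these 4 genes was called in any setting. DESeq2 gave no adjusted p for *WWTR1* and *ANKRD1*, and *WWTR1* was not tested with at least 10 counts in every library.

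Replicate numbers are shared between groups, and the labels do not say whether they mark pairs. Deviations of same-numbered libraries from their group means correlated at -0.0295, -0.0924 and -0.0771. These values gave no sign of pairs, but with 3 libraries a group they cannot exclude a shared culture or day. With the replicate block, 2026 genes were lower and 1875 higher, the 4 axis genes stayed lower, and *AMOTL1* lost its call. The *TEAD1* to *TEAD4* difference of 0.0933 is the same with the block by construction, so it is no check of that value. The *YAP1* to *WWTR1* ratio was not run because of 0 counts. Low counts limit *WWTR1* and *ANKRD1*. For *WWTR1*, with 0 counts in control replicate 1 and 28 in control replicate 3, the spread between libraries was a limit as well. For *CCN1*, at 182 to 252 counts per library, the spread between libraries was the larger limit, with 3.36 ± 0.818 CPM in control (SD, n = 3).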
